A study of Mus musculus with 4 samples.

Results

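The mature miRNAs of mouse miR-31 and miR-203 were followed in exosomes of the small intestinal epithelium and of serum. They were chosen by name, as the 4 entries mmu-miR-31-5p, mmu-miR-31-3p, mmu-miR-203-3p and mmu-miR-203b-5p, which both miRNA tables of the series list. These were 4 of 668 miRNAs listed in either table, of which 373 were listed for the intestine and 611 for serum. The remaining arms of the same hairpins, mmu-miR-203-5p and mmu-miR-203b-3p, were added so that both arms of each hairpin could be compared.

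The series held 4 small RNA libraries. Male C57BL/6J mice on standard chow, with no treatment named in the labels, gave vesicles from small intestinal epithelium (SI-Exos) when 3 or 18 months old, and blood drawn by heart puncture from mice of these ages gave serum exosomes. Exosomes were purified by ultracentrifugation, so each library is cell-free vesicle RNA, and SI-Exos came from the suspension shaken off everted intestine after chelation. Each group was 1 library, and the sources used here do not give how many mice stood behind a library. Differences between libraries therefore have no replicate check, and the intervals below are exact 95% intervals that cover counting error only. They take reads as independent, and reads without molecular identifiers are not independent molecules, so the intervals may be too narrow even for counting error.

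A miRNA is cut from a hairpin precursor as a duplex of a 5p and a 3p strand. As a rule one strand is kept by an Argonaute protein as the guide and the partner, the passenger strand, is mostly degraded. The guide finds its targets chiefly through the seed, the bases near its 5′ end. miR-31 is known as a miRNA of intestinal crypt stem cells, where it supports proliferation and regeneration, and its usual guide is the 5p strand. miR-203 is known from skin, where it limits the stemness of basal keratinocytes by repressing p63 and so favours differentiation, and its usual guide is the 3p strand. miR-203b is annotated on the opposite strand of the same locus as miR-203.

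The 4 members and the 2 remaining arms are shown because their seeds and their complementarity bear on the comparisons of arms. Each is written 5′ to 3′ with the seed, bases 2 to 8, in capitals. All 6 of 6 names matched RefSeq's miRNA entries on GRCm38.p6.
mmu-miR-31-5p: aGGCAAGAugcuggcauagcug
mmu-miR-31-3p: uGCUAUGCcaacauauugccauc
mmu-miR-203-3p: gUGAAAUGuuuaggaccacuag
mmu-miR-203b-5p: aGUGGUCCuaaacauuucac
mmu-miR-203-5p: aGUGGUUCuugacaguucaaca
mmu-miR-203b-3p: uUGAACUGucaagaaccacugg

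The seeds of the 4 members differed from one another, and no other miRNA of either table carried any of them. The seeds of miR-203-5p and miR-203b-5p differed by the single substitution U7C, with positions counted from 1 at the 5′ end and the base of miR-203-5p given first. Over the 20 positions that both miRNAs cover, 15 were identical.

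Whole hairpins are shown for both loci, since the arms are read against each other, and here the capitals mark the 5p and the 3p arm in that order.
Mir31 hairpin: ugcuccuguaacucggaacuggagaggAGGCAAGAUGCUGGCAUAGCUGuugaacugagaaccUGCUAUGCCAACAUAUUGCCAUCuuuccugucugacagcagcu
Mir203 hairpin: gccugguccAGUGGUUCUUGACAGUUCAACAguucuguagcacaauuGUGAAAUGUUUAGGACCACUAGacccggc

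The Mir31 hairpin of 106 bases lies on the minus strand of chr4:88910557-88910662 (GRCm38.p6), inside an exon of the long non-coding RNA gene AL805899.1 in GENCODE M21. Its 14 bases between the arms form the loop side of the precursor. The Mir203 hairpin of 76 bases lies on the plus strand of chr12:112130880-112130955, in no other annotated gene of that strand, 3320 bases from the coding gene Aspg and 15252 bases from Kif26a. The mir-203b hairpin (gene Gm51289) lies on the minus strand of the same stretch, at chr12:112130887-112130946. mmu-miR-203-3p and mmu-miR-203b-5p cover 20 common positions on opposite strands and are exact reverse complements over 20 bases. The pair mmu-miR-203-5p and mmu-miR-203b-3p also share 20 positions. The sources used here do not give whether reads were counted by strand, so a read of one of these sequences depends on its orientation having been kept. This limit applies to every miR-203 and miR-203b value below.

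The libraries differed in depth. SI-Exos held 212215 miRNA reads at 3 months and 71353 at 18 months, and serum exosomes 832002 and 778237. One read was worth 4.71, 14.01, 1.20 and 1.28 CPM in that order, where CPM is a count scaled to 1000000 miRNA reads of its library, so the 18-month SI-Exos library resolved low levels least. The miRNA reads of SI-Exos were 1.14% of the authors' total at 3 months and 0.411% at 18 months, against 5.89% and 5.31% in serum. The choice of total therefore matters for SI-Exos, and values on the authors' total are given beside the results it moves most.

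The level of mmu-miR-31-5p, the usual guide of its hairpin, was 947 CPM (interval 821 to 1087; 201 reads) in SI-Exos at 3 months and 2326 CPM (1986 to 2708; 166 reads) at 18 months. In serum exosomes it was 9.62 CPM (8 reads) at 3 months and 7.71 CPM (6 reads) at 18 months. The order was SI-Exos at 18 months, SI-Exos at 3 months, then both serum libraries, whose intervals overlapped. It ranked 62 of 326 detected miRNAs in SI-Exos at 3 months and 46 of 258 at 18 months, but 228 of 486 and 244 of 496 in serum.

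The level of mmu-miR-31-3p, the usual passenger strand, was 429 CPM (345 to 526; 91 reads) in SI-Exos at 3 months and 4429 CPM (3955 to 4944; 316 reads) at 18 months. The serum libraries held 4 reads each, or 4.81 CPM at 3 months and 5.14 CPM at 18 months. The order of the 4 libraries was led by SI-Exos at 18 months, with SI-Exos at 3 months next and the serum pair far below and not distinguishable from each other. The strand stood below its partner in SI-Exos at 3 months and above it at 18 months.

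The level of mmu-miR-203-3p, the usual guide of Mir203, was 528 CPM (435 to 635; 112 reads) in SI-Exos at 3 months. The 18-month SI-Exos library held 0 reads, for which the interval reaches 51.7 CPM, and 3 reads, the floor used below, would be 42.0 CPM. Serum exosomes held 19.2 CPM (11.0 to 31.2; 16 reads) at 3 months and 39.8 CPM (27.1 to 56.5; 31 reads) at 18 months. Only the 3-month SI-Exos library stood clear of the rest, because the limit for SI-Exos at 18 months covers both serum levels.

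The level of mmu-miR-203b-5p, from the opposite strand, was 84.8 CPM (50.3 to 134; 18 reads) in SI-Exos at 3 months, with 0 reads at 18 months. In serum it was 21.6 CPM (12.8 to 34.2; 18 reads) at 3 months and 3.85 CPM (0.795 to 11.3; 3 reads) at 18 months. At 3 months the SI-Exos level lay above both serum levels, and the serum intervals of the 2 ages did not overlap. The remaining arms were sparser. mmu-miR-203-5p had 90 and 0 reads in SI-Exos and 0 and 2 in serum, at 3 and 18 months, and mmu-miR-203b-3p had 5 and 0 in SI-Exos and 6 and 1 in serum.

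**Figure D1:**
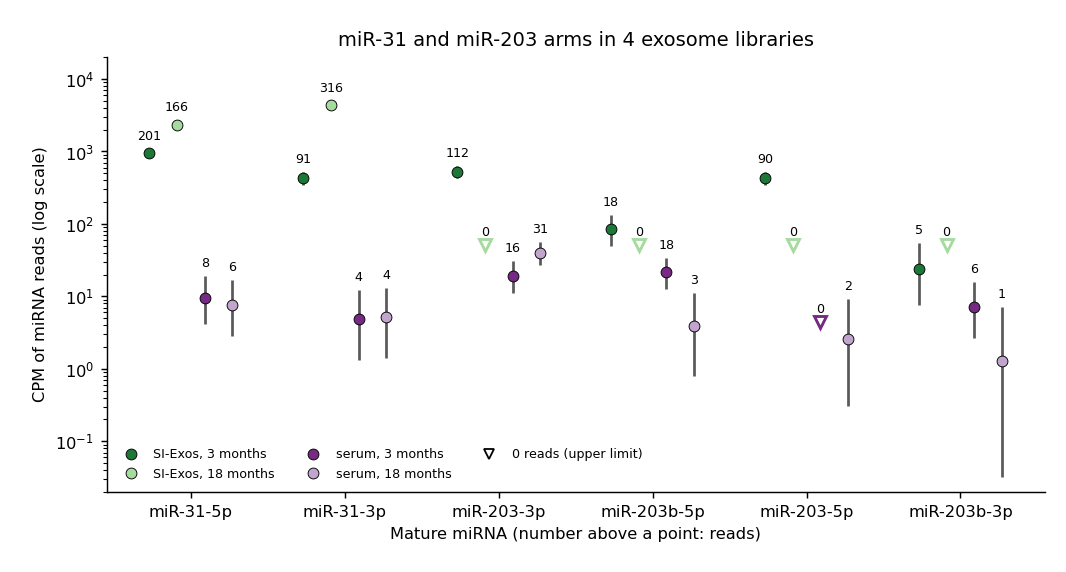
Level of each arm as CPM of miRNA reads on a log axis, 1 point per library, with exact 95% intervals as bars and the read number above each point. Open triangles mark the upper limit where a library held 0 reads. Both miR-31 arms are high in both SI-Exos libraries, while the 4 arms of miR-203 and miR-203b have 0 reads in SI-Exos at 18 months.

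The comparison of ages in SI-Exos asks which of these epithelial miRNAs differ in intestinal vesicles between young and old mice. Both arms of miR-31 were higher at 18 months and both miR-203 members were higher at 3 months. A miRNA was called when 1 library had at least 10 reads, the interval of the CPM ratio did not include 1, and the CPM differed by 2-fold or more or reads were 0 on one side. Ratios are of 3 over 18 months, and 3 reads stand in for 0 where a bound is given. By this rule the calls in SI-Exos went to 3 months for 32.7% of the 214 miRNAs measured and to 18 months for 29.4%, so calls in either direction were common. On the authors' RPM the split was 131 to 31 miRNAs, against 70 to 63 on CPM, with DESeq2 size factors 100 to 50 and without the 5 most abundant miRNAs 52 to 72. Of the 4 members, all of which reached 10 reads, 2 were called toward 3 months and 2 toward 18 months.

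The passenger strand mmu-miR-31-3p was 10.3-fold higher at 18 months (interval 8.16 to 13.2). Its partner mmu-miR-31-5p was 2.46-fold higher at 18 months (1.99 to 3.03). Taking both arms together, the Mir31 hairpin had 292 reads at 3 months and 482 at 18 months, a 4.91-fold higher CPM (4.24 to 5.70). The fold of both arms together was computed on CPM only. The authors' RPM multiplies every ratio of 3 over 18 months in SI-Exos by 2.78, which makes that fold smaller. The 5p value also depended on the total. On the authors' RPM, which scales reads to their larger total, it was 10.8 at 3 months and 9.56 at 18 months, a ratio of 1.13 that was not called and pointed the other way, and with DESeq2 size factors the ratio was 0.582 and was not called. For mmu-miR-31-3p the ratio was 0.269 on the authors' RPM and 0.138 with DESeq2 size factors, and the call held under both.

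mmu-miR-203-3p, with 112 reads against 0, was at least 12.6-fold higher at 3 months (exact lower limit 10.04). At an equal share of reads, 37.7 reads were to be expected in the smaller 18-month library. Its partner arm mmu-miR-203-5p, with 90 reads against 0, was at least 10.1-fold higher (lower limit 8.04), where 30.3 reads were to be expected. Both arms of the hairpin thus had 0 reads in the same library. Over both arms and both strands, the Mir203 locus had 225 reads at 3 months and 0 at 18 months, or at least 25.2-fold more (lower limit 20.3).

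An absence of this kind was uncommon among miRNAs of like or greater depth. Of 87 miRNAs with at least 100 reads in SI-Exos at 3 months, 4 had 0 reads at 18 months, and these were miR-200b-3p (381 reads at 3 months), miR-7b-5p (312), miR-203-3p (112) and miR-802-5p (110), named after their values were seen. Ordered by reads at 3 months among all 115 miRNAs with 0 reads at 18 months, miR-203-5p came next, at place 5. Of the 30 other miRNAs within 1.5-fold of the 3-month reads of miR-203-3p, 3 had 0 reads at 18 months, and the median was 36 reads. For miR-203-5p it was 4 of 28, with a median of 26.5 reads. Each of these arms was counted in the set of the other, so the 3 include miR-203-5p and the 4 include miR-203-3p. For mmu-miR-203b-5p the absence says less. It was at least 2.02-fold higher at 3 months (lower limit 1.48), where 6.05 reads were to be expected, and 20 of 45 miRNAs of like depth also had 0 reads.

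**Figure D2:**
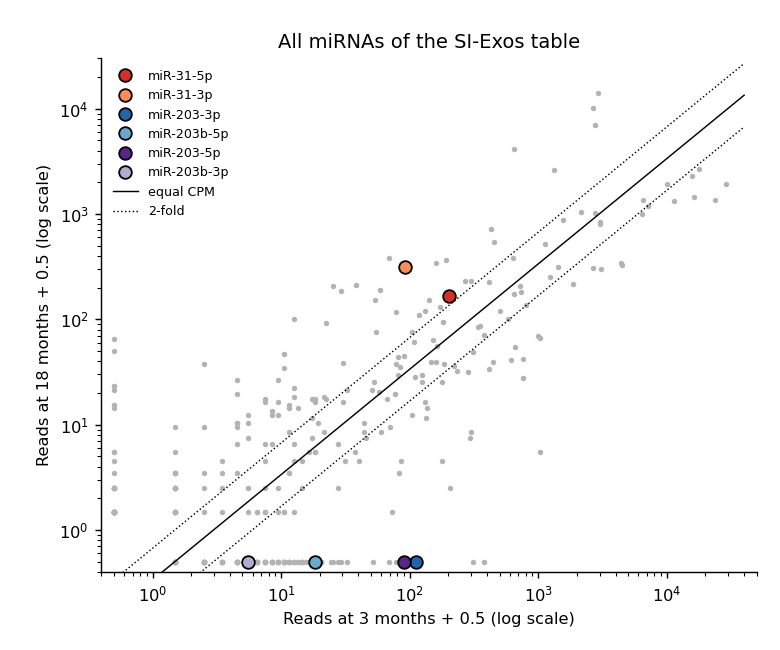
Reads of every miRNA of the SI-Exos table at 3 months against 18 months, with 0.5 added and both axes on a log scale. The solid line marks equal CPM and the dotted lines a 2-fold difference. miR-31-3p (91 and 316 reads) lies well above the lines, and miR-203-3p and miR-203-5p (112 and 90 reads at 3 months) lie on the row of 0 reads at 18 months.

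Markers of other sources moved between the same libraries. The 9 miRNAs taken as markers of intestinal epithelium, such as miR-192-5p and the miR-200 family, held 27.6% of SI-Exos reads at 3 months and 8.56% at 18 months, in both cases far above their share in serum. All 9 were detected at 3 months and 8 at 18 months, where miR-200b-3p had 0 reads, and the calls were 6 toward 3 months and 0 toward 18 months, beside 32.7% and 29.4% of all miRNAs. The 5 red blood cell miRNAs held 0.632% and 3.79%, with 4 and 5 detected. The 3 myeloid miRNAs held 0.00377% and 0.0322%, with 2 and 3 detected. The liver miRNA miR-122-5p held 0.0245% and 0.0350%, and the 2 smooth muscle miRNAs 7.50% and 3.39%. Of these 2, miR-143-3p (15740 and 2323 reads) was called toward 3 months, while miR-145a-5p was higher at 18 months (ratio 0.641, not called). The part of these marker groups in the result was not tested. In vesicle RNA, as in bulk RNA, fewer vesicles of a cell type and less of a miRNA per vesicle cannot be told apart.

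Read against the epithelial markers, the contrast between miR-31 and miR-203 was as follows. In place of all miRNA reads, this ratio used the summed reads of the 9 markers and was chosen after the data were seen. mmu-miR-31-5p made 0.343 reads per 100 marker reads at 3 months and 2.72 at 18 months, 7.92-fold more (6.40 to 9.79), and mmu-miR-31-3p was 33.3-fold higher (26.3 to 42.6). Each of the 2 arms was higher at 18 months against 9 of 9 markers taken singly. The size of these folds rests chiefly on miR-429-3p and miR-192-5p, with 29084 and 16378 of the 58594 marker reads at 3 months. Against miR-141-3p (ratio 0.806) and miR-215-5p (0.921), which were not higher at 3 months, the folds were smaller. mmu-miR-203-3p was still at least 3.89-fold higher at 3 months on this base (lower limit 3.11). mmu-miR-203b-5p was not called, since the bound of 0.626 included equality. On both bases the miR-31 arms were thus higher at 18 months and miR-203-3p was higher at 3 months.

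**Figure D3:**
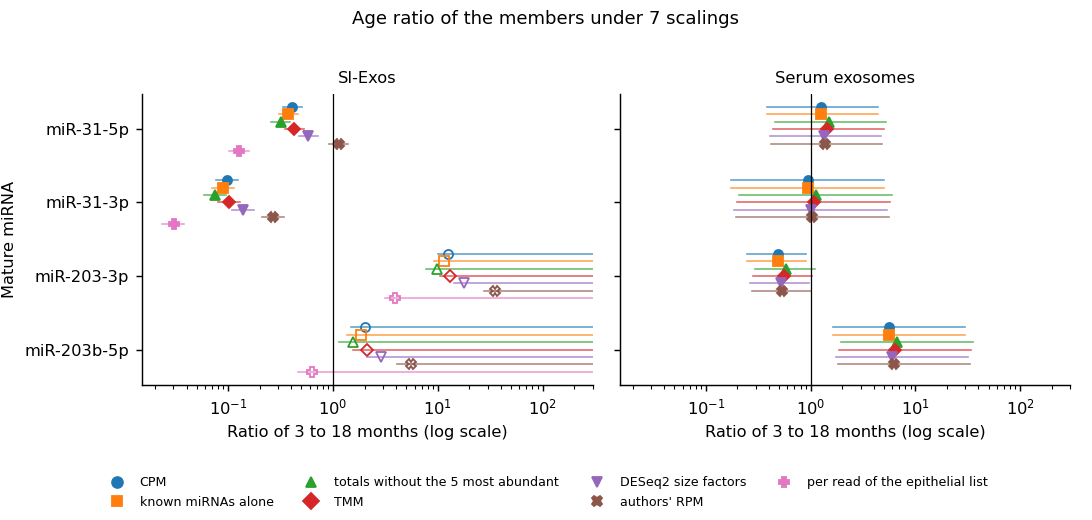
Ratio of 3 to 18 months for the 4 members under CPM and 6 other scalings, on a log axis with exact 95% intervals as lines (the scaling to the epithelial list was used for SI-Exos only). Open symbols are ratios with 3 reads in place of 0 for miRNAs with 0 reads at 18 months, and their lines start at the exact lower limit. In SI-Exos miR-31-5p runs from 0.126 to 1.13, while miR-31-3p stays below 1 and miR-203-3p above 1 under each scaling. In serum the miR-31 intervals all include 1.

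The same comparison in serum exosomes asks whether the circulating level differs in the same way. Of the 251 miRNAs measured, 18.3% were called toward 3 months and 25.9% toward 18 months, or 46 to 65 miRNAs, and without the 5 most abundant miRNAs the split was 58 to 47. Both miR-31 arms were under 10 reads in each library and gave no call. The ratio for mmu-miR-31-5p was 1.25 (0.379 to 4.36), and for mmu-miR-31-3p it was 0.935 (0.174 to 5.02). These intervals leave room for both a 2-fold excess and a 2-fold deficit. The ratio of 0.0968 that miR-31-3p had in SI-Exos lies below its serum interval on CPM, but on the authors' RPM the SI-Exos ratio of 0.269 lies inside the serum interval of 0.193 to 5.57. For the hairpin as a whole, with 12 and 10 reads, the ratio was 1.12 (0.444 to 2.90).

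The miR-203 members in serum went in opposite directions. mmu-miR-203-3p had 16 reads at 3 months and 31 at 18 months, a level 2.07-fold higher at 18 months (1.10 to 4.05). mmu-miR-203b-5p had 18 and 3 reads, a level 5.61-fold higher at 3 months (1.64 to 29.7). The call for miR-203-3p was marginal. It was lost on the authors' RPM (ratio 0.535), with TMM (0.551), with DESeq2 size factors (0.516) and on totals without the 5 most abundant miRNAs (0.580), whereas miR-203b-5p was called under all 5 of these scalings, known miRNAs alone included, at 5.62 to 6.74. Of the members, mmu-miR-203b-5p was the only one called higher at 3 months in both sources, although it had 18 reads at most in any library. In serum, red blood cell miRNAs held 22.0% of reads at 3 months and 54.0% at 18 months, and miR-122-5p 38.4% and 2.65%. The 9 epithelial markers held 1.71% and 0.721% and the myeloid miRNAs 0.0666% and 0.301%. The smooth muscle miRNAs held 4.22% and 1.74%, and every marker of these lists was detected at both ages. Most epithelial marker reads were of miR-192-5p (13184 of 14223 and 3216 of 5613). Of the 9 markers, 1 was called toward 3 months and 4 toward 18 months, beside 18.3% and 25.9% of all miRNAs. Most smooth muscle reads were of miR-143-3p (34810 and 13133), while miR-145a-5p was higher at 18 months (ratio 0.584, not called). The skin epithelial miRNA miR-205-5p had 36 and 91 reads in serum against 0 and 1 in SI-Exos. The part of these sources in the serum levels was not tested.

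The comparison of sources at the same age asks how far the members are particular to intestinal vesicles. At both ages it covers only the 316 miRNAs listed in both tables. All 4 members were called higher in SI-Exos than in serum at 3 months. Among the 235 of these miRNAs measured there, 44.3% were called higher and 28.1% lower. The split of 104 to 66 on CPM was 50 to 133 on the authors' RPM and 79 to 105, 82 to 99 and 81 to 100 with TMM, DESeq2 size factors and totals without the 5 most abundant. mmu-miR-31-5p was 98.5-fold higher (49.0 to 231) and mmu-miR-31-3p 89.2-fold (33.7 to 334). mmu-miR-203-3p was 27.4-fold higher (16.2 to 49.7) and mmu-miR-203b-5p 3.92-fold (1.92 to 7.99). The intervals of both miR-31 arms overlapped, and that of miR-203b-5p lay below all others. In the same comparison all 9 epithelial markers were called higher in SI-Exos, with a median log2 ratio of 6.69 (0.5 counts added). The log2 ratio was 6.62 for miR-31-5p, 6.48 for miR-31-3p, 4.78 for miR-203-3p and 1.97 for miR-203b-5p. The excess over serum was thus shared with the epithelial markers. The call for miR-203b-5p was lost under 4 of 5 other scalings, at 0.759 on the authors' RPM, 1.76 with TMM, 2 with DESeq2 size factors (0.982 to 4.07) and 1.96 without the 5 most abundant miRNAs (0.960 to 3.99). On the authors' RPM miR-31-5p (19.1), miR-31-3p (17.3) and miR-203-3p (5.32) kept their calls. mmu-miR-203-5p, with 90 reads in SI-Exos and 0 in serum, was at least 118-fold higher (lower limit 93.7).

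At 18 months 34.2% of 231 miRNAs were called higher in SI-Exos and 31.2% lower, a split of 79 to 72 that was 41 to 173 on the authors' RPM, 63 to 107 with TMM and 67 to 98 with DESeq2 size factors. mmu-miR-31-5p was 302-fold higher in SI-Exos (136 to 834) and mmu-miR-31-3p 862-fold (333 to 3182), on 6 and 4 serum reads. On the authors' RPM these folds were 23.3 (10.5 to 64.5) and 66.6 (25.8 to 246), and with TMM 134 and 383, all of them called. mmu-miR-203-3p, with 0 reads in SI-Exos and 31 in serum, was at most 1.06-fold of the serum level (exact upper limit 1.38) and was not called. The depth of the 18-month SI-Exos library did not allow a difference from serum to be seen on CPM, while on the authors' RPM (at most 0.0816), TMM (0.470) and DESeq2 size factors (0.556) it was called lower in SI-Exos. mmu-miR-203b-5p had 0 and 3 reads, and no ratio is given.

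The arms of a hairpin can be compared inside a library, where no total enters. In SI-Exos the 5p strand made 68.8% of miR-31 reads at 3 months (63.2 to 74.1; 201 of 292) and 34.4% at 18 months (30.2 to 38.9; 166 of 482). The intervals did not overlap, and the strand with more reads changed from 5p to 3p. In serum the 5p share was 66.7% (34.9 to 90.1; 8 of 12) at 3 months and 60.0% (26.2 to 87.8; 6 of 10) at 18 months, too few reads to tell the ages apart or to set serum against SI-Exos. The ratio of 5p to 3p reads was 2.21 at 3 months and 0.525 at 18 months in SI-Exos, an odds ratio of 4.20 (3.05 to 5.81).

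**Figure D4:**
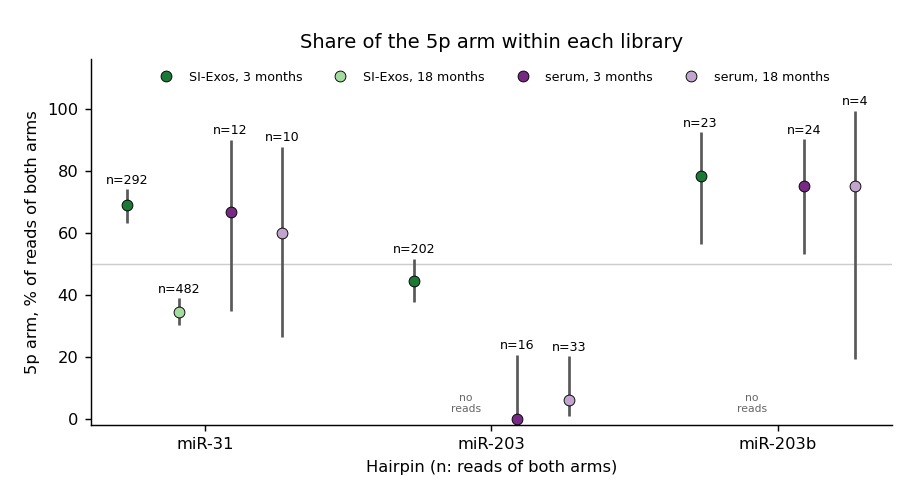
Share of the 5p arm among the reads of both arms, in percent, for 3 hairpins in each library, with exact 95% intervals and the number of reads behind each point. miR-31 falls on either side of 50% in SI-Exos at 3 months (68.8%) and 18 months (34.4%), and miR-203 has a higher 5p share in SI-Exos at 3 months (44.6%) than in serum (0% and 6.06%).

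Of 65 hairpins with both arms in the SI-Exos table, 26 had at least 10 reads on each arm summed over both ages and at least 1 read of the hairpin at each age. miR-203, with 0 reads at 18 months, could not be compared. The odds ratio of miR-31 was the fifth from the top, at place 5 of 26. A shift toward 5p at 3 months of at least 2-fold, with an interval without 1, was called in 15.4% of hairpins and one toward 3p in 23.1%. The 4 hairpins called on the side of miR-31 were let-7i (121; 16.7 to 5336, on 1 and 9 3p reads), miR-215 (6.99; 6.42 to 7.61), miR-328 (5p reads 16 and 0, lower limit 5.68) and miR-31. On the other side, the hairpins farthest from 1 by the nearer limit of the interval were miR-301a, with 0 and 15 5p reads and 11 and 0 3p reads, miR-141, with an odds ratio of 0.146 (0.0925 to 0.228), and miR-652, with 0.0973 (0.0219 to 0.344). Next below miR-31 came miR-574, at 2.38 (0.916 to 6.35), and let-7d, at 1.72 (0.526 to 4.44), neither of them called.

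Taken over all arm reads, the 3p share of the SI-Exos libraries was 35.0% at 3 months and 61.4% at 18 months. Hairpin by hairpin, 9 odds ratios were above 1 and 17 below, with a median of 0.625, of which 4 and 6 were called. The part of the 3p-rich makeup of the 18-month library in the miR-31 shift was not tested. miR-215, an epithelial marker, showed the nearest shift in size with far more reads, its 5p share being 50.2% at 3 months and 12.6% at 18 months.

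**Figure D5:**
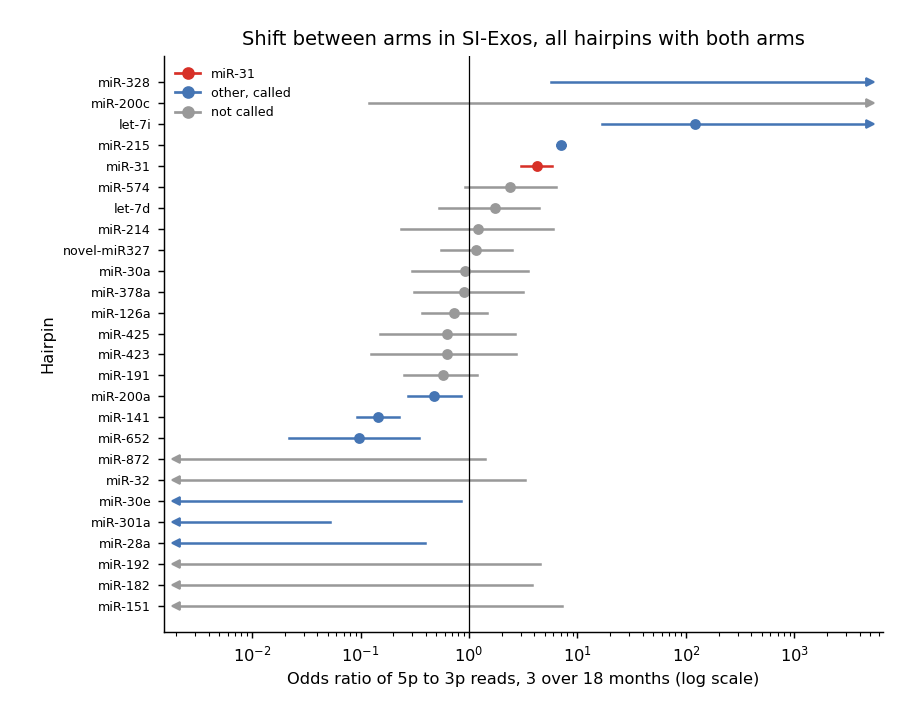
Odds ratio of 5p to 3p reads at 3 over 18 months in SI-Exos for the 26 hairpins with at least 10 reads on each arm over both ages and reads at each age, on a log axis with exact 95% intervals. Arrowheads mark intervals that run on to 0 or infinity. Hairpins without a dot have an odds ratio of 0 or infinity. miR-31 (4.20) stands at place 5 from the top, among 4 called hairpins on its side.

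In serum the miR-31 arms summed to 14 reads for 5p and 8 for 3p and were under the minimum, in a comparison where 10.5% of 38 hairpins were called toward 5p and 18.4% toward 3p. Between SI-Exos and serum, miR-31 was not called at either age. Its odds ratio was 1.10 (0.237 to 4.25) at 3 months, at place 18 of 34, where 23.5% of hairpins were called toward 5p in SI-Exos and 17.6% toward 3p. At 18 months it was 0.351 (0.0718 to 1.504), at place 23 of 31, where the shares were 19.4% and 29%.

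For miR-203 the arms differed by source. In SI-Exos at 3 months the 5p strand made 44.6% of reads (37.6 to 51.7; 90 of 202), so guide and passenger strand were nearly level. In serum it made 0% at 3 months (0 of 16, upper limit 20.6%) and 6.06% at 18 months (0.743 to 20.2; 2 of 33). At 3 months the shift was called toward 5p in SI-Exos, with a lower limit of 2.98 on the odds ratio, and at 18 months there were no SI-Exos reads to compare. miR-203b kept a 5p share of 78.3% (56.3 to 92.5) in SI-Exos at 3 months, 75.0% (53.3 to 90.2) in serum at 3 months and 75.0% (19.4 to 99.4; 3 of 4) in serum at 18 months, and these did not differ beyond their intervals. The 3-month source odds ratio of miR-203b was 1.20 (0.251 to 5.94).

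The complementary sequences mmu-miR-203-3p and mmu-miR-203b-5p can also be set against each other inside a library, a comparison added after the data were seen. Of the reads of both, mmu-miR-203b-5p made 13.8% (8.42 to 21.0; 18 of 130) in SI-Exos at 3 months, 52.9% (35.1 to 70.2; 18 of 34) in serum at 3 months and 8.82% (1.86 to 23.7; 3 of 34) in serum at 18 months. Serum at 3 months thus stood above the other libraries, with an odds ratio of 11.2 (2.70 to 68.0) against serum at 18 months. The sum over both strands hardly differed by age in serum. All 4 arms together had 40 reads at 3 months and 37 at 18 months, a ratio of 1.01 (0.630 to 1.63), and the opposite age differences of miR-203-3p and miR-203b-5p in serum lay in how reads were divided between the strands. Because the sequences mirror each other, this division cannot be told apart from a difference in strand assignment here.

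A list of 14 other miRNAs known in growth or differentiation of intestinal or skin epithelium, such as miR-205-5p, miR-34a-5p and let-7b-5p, was counted beside the members. The tables listed 13 of them, all except miR-107-3p. In SI-Exos 10 were measured, of which miR-7a-5p (3.45-fold) and let-7b-5p (2.17-fold) were higher at 3 months while miR-125b-5p was 4.19-fold higher at 18 months. That is 2 and 1 of 10, beside 32.7% and 29.4% of all miRNAs. The median log2 ratio of the list was 0.81, beside 0.45 for all miRNAs measured. Its more abundant members miR-26a-5p (1.74-fold), miR-21a-5p (ratio 0.731) and miR-24-3p (0.558) were not called. In serum 13 were measured, of which 1 was called higher at 3 months (miR-125b-5p, 2.67-fold) and 3 lower (miR-205-5p, miR-17-5p and miR-155-5p, ratios 0.370, 0.497 and 0.346), beside 18.3% and 25.9% of all miRNAs. The median log2 ratio there was −0.47, beside −0.38 for all.

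The miRNAs whose pattern over the 4 libraries was most like each member were sought by the distance between log2 CPM values (0.5 counts added, each miRNA centred on its own mean) among up to 156 miRNAs listed in both tables with at least 10 reads in 1 library of each. For mmu-miR-31-5p these were miR-466i-5p at a distance of 0.97, miR-194-5p at 1.44 and the predicted miRNA miR214-3p at 1.45. For mmu-miR-31-3p they were miR-30e-3p at 1.61, miR-466i-5p at 1.81 and the predicted miR214-3p at 1.83. The predicted miR214-3p is an entry apart from the known miR-214-3p, despite the like name. The other predicted miRNAs below are likewise entries of their own. Both miR-31 arms themselves fell under the minimum in serum, so their places rest on few serum reads.

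For mmu-miR-203-3p the nearest was the predicted miRNA miR380-5p at 0.81, with 51 and 0 reads in SI-Exos and 10 and 22 in serum at 3 and 18 months. Its seed is the same as that of miR-203-5p, although its sequence of 18 bases shares at most 7 bases in a row with the Mir203 hairpin. miR-200b-3p followed at 1.55, with 381 and 0 reads in SI-Exos and 14 and 35 in serum, and miR-98-5p at 1.64. For mmu-miR-203b-5p the nearest was miR-379-5p, a miRNA of the imprinted Dlk1-Dio3 region, at 0.53, with 302 and 8 reads in SI-Exos and 374 and 42 in serum. The predicted miR75-5p came next at 0.97 and miR-369-5p, of the same imprinted region, at 1.35. Each distance is a description over 4 libraries.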

How the data were processed

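Small RNA reads of 4 exosome libraries were analysed from 2 deposited tables, one for SI-Exos and one for serum. Per the labels, exosomes were isolated by ultracentrifugation and the notes of the submitters list GRCm38 and Bowtie2 2.2.9. The sources used here do not give the counting options. The authors deposited raw read counts per mature miRNA and an expression value that is the same count as RPM, scaled to a larger library total. Their fold changes and Poisson p-values between libraries were not used.

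Counts were scaled to the sum of each count column (CPM). Ratios, shares and odds ratios were given exact (Clopper-Pearson or conditional) 95% intervals with scipy 1.17.1 in Python 3.11.15, and a call needed 10 reads, an interval without 1 and a 2-fold difference or 0 reads in 1 library, and an arm shift needed 10 reads per arm over both libraries and reads of the hairpin in each. With 1 library per group no test was run. Scaling alternatives came from edgeR 4.0.16 (TMM) and DESeq2 1.42.0 in R 4.3.3. Scripts were tested on simulated data. The members and lists were chosen with earlier results of these data known. Besides the members, the text names their remaining arms, list members, the 3 hairpins farthest out on each side and those next to miR-31, and the 3 nearest miRNAs of each member.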

Additional observations from a re-analysis of the deposited data

Results flagged for a closer look

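On CPM, mmu-miR-203-3p was called toward opposite ages in the 2 sources. In SI-Exos it was 12.6-fold higher at 3 months with 3 reads in place of 0 (exact lower limit 10.04, 112 reads against 0). In serum exosomes, by contrast, the ratio of 3 over 18 months was 0.483 (16 reads against 31). The serum call was lost under 4 of 5 other scalings, at ratios of 0.516 to 0.580. All 4 arms of miR-203 and miR-203b together had 40 and 37 reads in serum, a ratio of 1.01 (0.630 to 1.63). How serum reads were divided between the strands cannot be told apart from a difference in strand assignment. The difference between sources was not tested, since each group was 1 library.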

How the results depend on the processing

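With 1 library per group, depth limits what can be seen, above all 71353 miRNA reads in SI-Exos at 18 months and 3 to 31 reads per member in the serum libraries. No paired analysis was possible because each group holds 1 library and no result comes from a test.

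In SI-Exos the age ratio of miR-31-5p reversed on the authors' RPM (1.13, not called) and moved to 0.582 with DESeq2 size factors (not called) and 0.316 without the 5 most abundant miRNAs, while miR-31-3p moved to 0.269, 0.138 and 0.0751 and stayed lower. Per read of the epithelial list, added after seeing the data, they were 0.126 and 0.0300, with miR-203-3p at 3.89 and miR-203b-5p at 0.626. The number of miRNAs called became 131 higher and 31 lower on RPM and 30 lower at 50 reads, and of the members 1 stayed higher at 50 reads and 1 lower at 4-fold. The median of all ratios shifts with the total, by 1.47 on the log2 scale for RPM, 0.52 for DESeq2 and −0.37 without the 5 most abundant.

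In serum, 28 miRNAs higher and 39 lower were called at 50 reads, where 0 members were called either way, and 22 and 19 at 4-fold, where 0 members were lower. The call of miR-203-3p was lost on RPM, with TMM, with DESeq2 size factors and without the 5 most abundant (0.516 to 0.580).

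At 3 months the SI-Exos to serum ratios on RPM were 19.1 (miR-31-5p), 17.3 (miR-31-3p), 5.32 (miR-203-3p) and 0.759 (miR-203b-5p, reversed and not called), with 50 miRNAs higher and 133 lower. The call of miR-203b-5p was also lost with DESeq2 size factors (2) and without the 5 most abundant (1.96). TMM gave 44.3 for miR-31-5p, 12.3 for miR-203-3p and 1.76 for miR-203b-5p, with 105 lower. miR-203-3p was 14 with DESeq2 size factors and 13.7 without the 5 most abundant, where 100 miRNAs were lower, and 66 were higher at 50 reads. At 18 months RPM gave 23.3 (miR-31-5p), 66.6 (miR-31-3p) and 0.0816 (miR-203-3p), with 41 higher and 173 lower. TMM gave 134 for miR-31-5p and 0.470 for miR-203-3p, DESeq2 0.556 for the latter, and 45 were higher at 50 reads. Without the interval rule 1 member, miR-203-3p, was lower.

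Arm shifts called at 50 reads were 2 and 2 (5p and 3p) in SI-Exos, 1 and 4 in serum, 5 toward 5p between sources at 3 months and 3 and 3 at 18 months. Serum also gave 8 toward 5p at 1 read, 11 toward 3p at 1.5-fold and 4 at 4-fold. Of the 3 nearest miRNAs, 1 was kept at 50 reads for each of the 4 members, and with 2 counts added 2 were kept for miR-203-3p and 1 for miR-203b-5p.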
